A study of Mus musculus with 10 samples.

Results

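The 39 genes described here are nuclear genes whose proteins replicate, transcribe, process and translate the mitochondrial genome. They were chosen by name for their known roles, with earlier results of these data known, and all 39 were among the 47729 genes of the deposited expression table. The symbol matched for 36 of them, and Twnk, Mrm2 and Mrm3 were matched by gene ID, because the table lists them under the symbols Peo1, Ftsj2 and Rnmtl1. The table holds livers of female mice, 5 Etnppl knockout (KO) and 5 wild-type (WT) samples with 1 library each. In the knockout the gene is disrupted throughout the body, so the deletion was not limited to liver cells. Both genotypes were fed alike, first 8 weeks of chow, then 10 weeks of a diet in which fat supplied 45% of the calories. No strain, age at harvest or deleted exon is given in the sources used here. The values are FPKM, sequenced fragments per kilobase of transcript, scaled to the library's total, from poly(A)-selected RNA. Whether each sample was a separate animal is not stated in the labels, and p-values therefore reflect only the variation among these samples.

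Mitochondria keep a small circular genome that encodes a few respiratory chain subunits, ribosomal RNAs and transfer RNAs. Every protein that copies this genome, transcribes it, trims and stabilises its RNAs or drives its translation is encoded in the nucleus, made in the cytosol and imported. Hepatocytes are rich in mitochondria and depend on them for fatty acid oxidation, ketone body formation and the urea cycle. Etnppl, the deleted gene, encodes ethanolamine-phosphate phospho-lyase, which breaks down an intermediate of phosphatidylethanolamine synthesis, and phosphatidylethanolamine is a major lipid of mitochondrial membranes. The comparison asks whether the genes for mitochondrial gene expression differed between KO and WT livers on this diet.

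Etnppl was at 27.57, 56.55, 32.99, 36.68 and 30.63 FPKM in the WT libraries, replicates 1 to 5, and at 8.79, 7.75, 10.19, 7.36 and 9.35 FPKM in the KO libraries. The groups did not overlap, so every library matched its label (log2 fold change -1.99, limma adjusted p = 0.000387), and its mean in KO was 23.6% of that in WT. Depth, estimated from the spacing of low values, ran from 20900000 to 27900000 fragments. Hepatocyte markers such as Alb and Apoa1 summed to 67702 to 79332 FPKM in WT livers and 74622 to 86505 FPKM in KO. Markers of Kupffer cells (371 to 513 FPKM in WT livers and 326 to 475 FPKM in KO), sinusoidal endothelium (192 to 213 and 171 to 205 FPKM) and stellate cells (164 to 222 and 157 to 179 FPKM) were lower. The summed levels overlapped between the genotypes in all 11 marker lists, and 0 of the 63 marker genes tested passed, where 0.0645% of all genes tested did. Of the hepatocyte markers 9 were higher and 2 lower in KO. Kupffer cell markers had 1 higher and 9 lower, sinusoidal endothelium 2 and 6, and stellate cells 1 and 8, where 65.1% of all genes tested were lower. Whether the mix of cells differed was not tested. Cholangiocyte markers summed to 22.5 to 27.8 FPKM in WT livers and 19.2 to 28.9 FPKM in KO, lymphocyte markers to 8.45 to 19.1 and 9.99 to 11.0 FPKM, neutrophil markers to 3.98 to 27.3 and 4.2 to 10.2 FPKM, and erythroid markers to 434 to 789 and 449 to 597 FPKM. Adipose markers reached at most 0.66 FPKM and muscle markers at most 2.15 FPKM in any library. Exocrine pancreas markers summed to 2.17 to 3.19 FPKM in 9 libraries and to 109 FPKM in KO replicate 3, so counts are also given below without that library.

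None of the 39 genes differed between KO and WT livers at an adjusted p of 0.05, in a limma fit across all 12395 genes tested, of which 0.0645% passed. Each of the 39 exceeded the filter of a mean of 0.5 FPKM, so all were tested. The smallest adjusted p among them was 0.13, for Mtif2, and log2 fold changes ran from -0.31 to 0.18. Lower in KO at an unadjusted p under 0.05 were 4 genes, and 0 were higher, against 9.07% and 2.69% of all genes tested. These 4 were Mtif2, Tfb2m, Mterf1a and Ssbp1, and without KO replicate 3, the library with pancreas markers, Mtif2 and Tfb2m were the 2 left. Their log2 fold changes without it were -0.28 and -0.23, with limma adjusted p of 0.222 and 0.256. Lower values in KO were seen for 26 of the 39, or 66.7%, beside 65.1% of all genes tested, and the median log2 fold change was -0.05 for the 39 and -0.05 for all genes. Leaving out KO replicate 1 alone gave 20 lower and 19 higher, with 57.7% of all genes lower. Leaving out KO replicate 3 gave 25 lower and 14 higher, with 65.9%. With median-of-ratios scaling of all libraries the split became 19 lower and 20 higher with 51.1% of all genes lower, and with quantile normalization 21 lower and 18 higher with 51.7%. Under both of these, 3 genes lower and 2 higher in KO, Tbrg4 and Tefm, had an unadjusted p under 0.05. The groups did not overlap in 2 of the 39, both lower in KO, where 2.21% of all genes tested had such ranges in that direction. For all 39 the 95% confidence interval lay inside a 1.5-fold change in either direction, as it did for 85.9% of all genes tested, and for 29 (74.4%) it lay inside a 1.3-fold change, beside 57.7% of all genes tested.

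**Figure D1:**
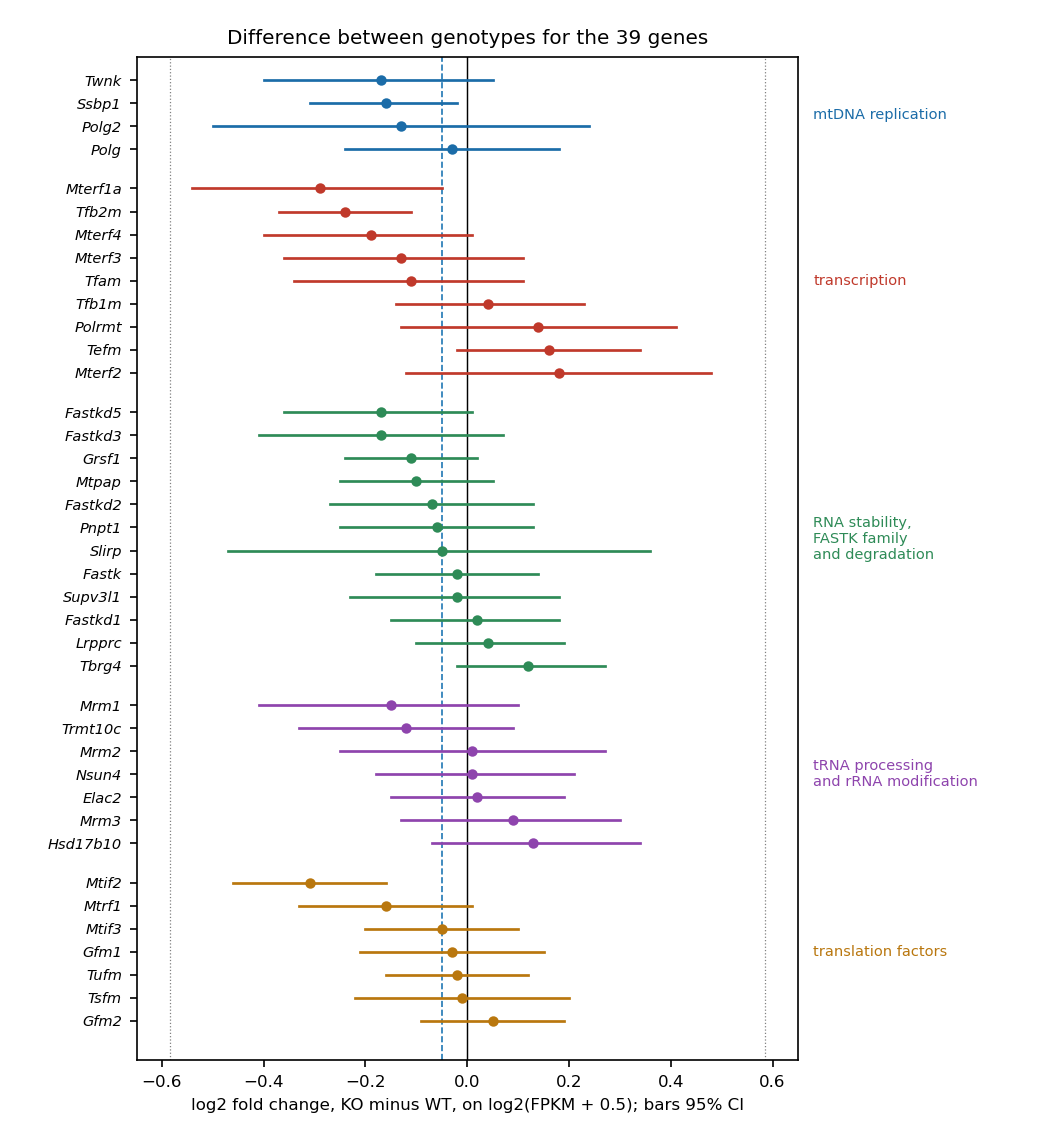
Log2 fold change (KO minus WT, on log2(FPKM + 0.5)) of each of the 39 genes with its 95% confidence interval from limma, n = 5 libraries per genotype, grouped by role. The dotted lines mark a 1.5-fold change in either direction and the dashed line the median of all genes tested, -0.05. Every interval lies between the dotted lines, and those of Mtif2, Tfb2m, Mterf1a and Ssbp1 lie below 0.

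These genes covered a wide range of levels. Mean FPKM over the 10 libraries ran from 1.29 for Mrm1 to 141 for Hsd17b10, with a median of 8.87 beside 6.58 for all genes tested. Above 10 FPKM there were 16 genes, while 2, Mrm1 and Mterf1a, were below 2 FPKM. The coefficient of variation over all 10 libraries was 10.1% in the median gene, lowest for Gfm2 at 5.41% and highest for Polg2 at 23.3% and Slirp at 23.2%. In bulk tissue, fewer cells of a type and less RNA per cell cannot be told apart.

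**Figure D2:**
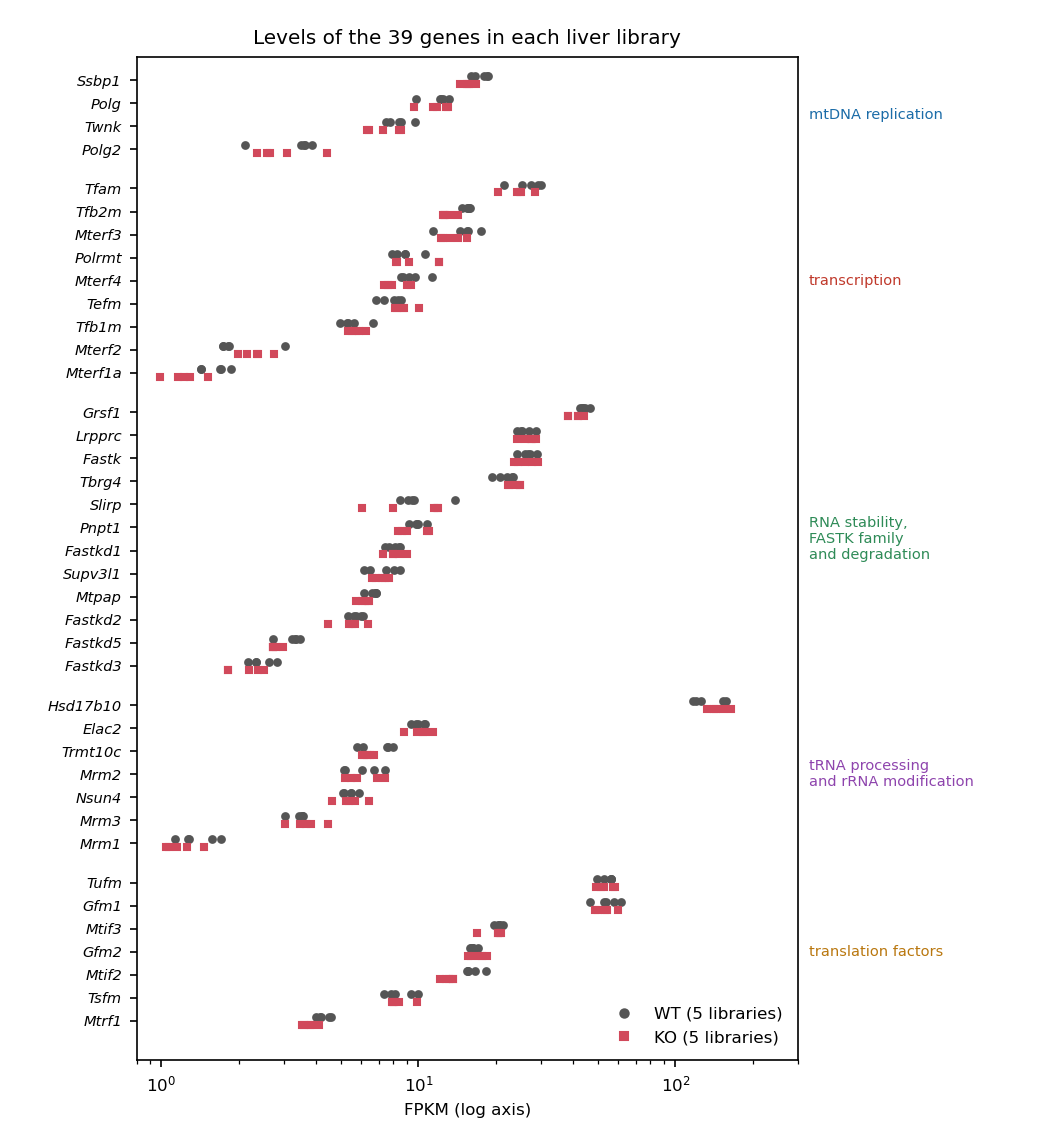
FPKM of the 39 genes in every library on a log axis, ordered by mean level within each role. Grey circles are the 5 WT libraries and red squares the 5 KO libraries. Hsd17b10 stands highest at 141 FPKM on average, and circles and squares overlap in all genes other than Tfb2m and Mtif2.

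Several of these genes are textbook targets of nuclear respiratory factors. The DNA before their start sites was therefore searched for letters that these factors bind, and separately for the E-box CACGTG. The search covered RefSeq promoter windows (GRCm38.p6) from 250 bases before to 50 after each start, on both strands, and 36 of the 39 genes had a window. The ETS motif CCGGAAG, bound by GABPA (nuclear respiratory factor 2) among other ETS factors, was found in 20 of the 36 (55.6%). It was found in 20.2% of the 9217 tested genes with a window and in 9.93% of all 27025 genes with a window, a gene counting if any of its windows matched. In 18 of the 20 a match began between 60 bases before and 10 bases after the start. The core of the NRF1 motif, GCGCATGC, was found in 2 of the 36 (5.56%), Polrmt and Tfb2m, beside 6.01% of tested genes and 3.05% of all genes with a window. The E-box CACGTG was found in 2 of the 36, Fastkd1 and Mrm1 (5.56%), beside 11.9% of tested genes and 8.09% of all genes with a window. A match of letters does not show that a factor binds there. Of the 20 genes with the ETS motif, 16 were lower in KO, with a median log2 fold change of -0.11, and of the 16 without it 7 were lower, with a median of 0.01. Among all tested genes with a window, 66.3% of those with the motif and 65.2% of those without it were lower, and the median was -0.05 in each set. With median-of-ratios scaling, 12 of the 20 and 5 of the 16 were lower. The split among the 39 was not tested.

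The 120 bases just before the RefSeq start are shown for the 4 genes with an unadjusted p under 0.05 and for Tfam and Polrmt, the core of the transcription machinery. They are written on the strand of the gene, with matches to the ETS motif or its reverse complement in capitals. The stretches lie at chr11:29526277-29526396 (plus strand), chr1:179546277-179546396 (minus strand), chr5:3893934-3894053 (minus strand), chr6:40471348-40471467 (plus strand), chr10:71238045-71238164 (minus strand) and chr10:79746582-79746701 (minus strand) of GRCm38.p6. In GENCODE, Ssbp1 starts at chr6:40471352 (plus strand) and Tfam at chr10:71238280 (minus strand). Nearly all of the Ssbp1 stretch and all of the Tfam stretch, with their ETS matches, therefore lie inside the genes as GENCODE places them. The stretch before Tfb2m holds none of the 3 motifs, since its NRF1 match begins 13 bases after the first transcribed base. The NRF1 match of Polrmt begins 133 bases before the start, outside the stretch shown.
Mtif2: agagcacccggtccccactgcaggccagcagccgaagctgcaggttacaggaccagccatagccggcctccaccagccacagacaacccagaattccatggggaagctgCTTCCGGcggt
Tfb2m: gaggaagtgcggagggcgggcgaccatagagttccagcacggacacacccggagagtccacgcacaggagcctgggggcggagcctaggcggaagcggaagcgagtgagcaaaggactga
Mterf1a: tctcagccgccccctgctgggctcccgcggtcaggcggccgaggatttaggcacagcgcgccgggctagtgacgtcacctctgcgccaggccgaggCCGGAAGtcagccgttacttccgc
Ssbp1: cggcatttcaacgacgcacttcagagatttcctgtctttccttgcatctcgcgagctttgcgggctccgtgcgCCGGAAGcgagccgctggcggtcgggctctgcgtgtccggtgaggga
Tfam: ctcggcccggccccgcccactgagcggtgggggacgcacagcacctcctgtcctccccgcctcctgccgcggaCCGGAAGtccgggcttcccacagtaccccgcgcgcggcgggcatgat
Polrmt: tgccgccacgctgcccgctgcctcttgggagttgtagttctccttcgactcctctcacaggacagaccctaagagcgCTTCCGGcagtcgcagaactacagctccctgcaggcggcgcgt

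The 4 genes of mitochondrial DNA replication had lower means in KO, with a median log2 fold change of -0.15 and 0 past the test, and Polg turned higher with median-of-ratios or quantile scaling. Ssbp1, the single-stranded DNA-binding protein that covers the unwound strand at the replication fork, had the lowest p of them. It was at 17.98, 18.44, 18.58, 16.68 and 16.03 FPKM in the WT libraries, replicates 1 to 5, and at 15.74, 16.82, 15.41, 15.6 and 14.51 FPKM in the KO libraries. WT replicates 1, 2 and 3 lay above every KO library, and KO replicate 2 alone reached the range of WT replicates 4 and 5. Means were 17.5 ± 1.13 and 15.6 ± 0.826 FPKM (SD, n = 5 each), a log2 fold change of -0.16 (SE 0.07, 95% CI -0.31 to -0.02, limma adjusted p = 0.354; exact two-sided permutation p = 0.0238). Ssbp1 lies on the plus strand of chromosome 6, 40471352 to 40484700 (GRCm38), with 0 bases of exon shared with another gene.

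Polg, the catalytic subunit of the mitochondrial DNA polymerase, was the gene of this role that differed least. Its values were 12.44, 12.22, 9.83, 12.13 and 13.12 FPKM in WT livers and 9.6, 11.79, 12.77, 12.99 and 11.41 FPKM in KO, and the ranges covered each other almost fully (log2 fold change -0.03, 95% CI -0.24 to 0.18). Polg2, the accessory subunit that holds the polymerase on DNA, was at 3.33 ± 0.694 FPKM in WT livers and 3.01 ± 0.829 FPKM in KO. The ratio of Polg to Polg2 varied from 2.58 to 5.9 between libraries, at 3.78 ± 1.21 in WT and 4.12 ± 1.18 in KO. Twnk, the replicative helicase Twinkle, was at 8.37 ± 0.886 FPKM in WT livers and 7.4 ± 1.05 FPKM in KO (log2 fold change -0.17, limma adjusted p = 0.54). Exon parts of Polg, Polg2 and Twnk overlap genes on the opposite strand, as they do in 18 of the 39 genes. The labels name a directional kit but not whether strand was used in counting, and reads from shared exon parts cannot be told apart.

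In the transcription machinery, 5 of 9 genes were lower and 4 higher in KO, with 0 past the test. Tfb2m, which opens the promoter together with the polymerase to start transcription, separated the genotypes. Its values were 15.5, 15.86, 15.6, 15.69 and 14.81 FPKM in the WT libraries and 14.26, 13.22, 12.59, 12.44 and 12.7 FPKM in the KO libraries. Every KO library lay below every WT library, and the WT values spanned little more than 1 FPKM. The means of 15.5 ± 0.404 and 13.04 ± 0.741 FPKM (n = 5 each) gave a log2 fold change of -0.24 (SE 0.06, 95% CI -0.37 to -0.11), with a limma adjusted p of 0.157. The exact two-sided permutation p was 0.00794, the smallest that 5 against 5 libraries allow. Any gene whose groups do not overlap reaches it, so it adds nothing to that separation. Tfb2m lies on the minus strand of chromosome 1, 179528055 to 179546267 (GRCm38), with 0 bases of exon overlap.

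Polrmt, the mitochondrial RNA polymerase, did not have a lower mean in KO. Its values of 10.62, 7.91, 8.88, 8.29 and 8.9 FPKM in WT livers and 12.08, 9.2, 8.18, 8.28 and 12.05 FPKM in KO overlapped widely, and KO replicates 1 and 5 were the highest of all (log2 fold change 0.14, 95% CI -0.13 to 0.41). Tfam, which bends and packages mitochondrial DNA and is the highest of the 9 genes, was at 29.32, 27.48, 25.3, 21.46 and 29.94 FPKM in WT livers and 28.51, 20.41, 24.19, 24.94 and 25 FPKM in KO. Both genotypes ran from near 20 to near 30 FPKM (log2 fold change -0.11, 95% CI -0.34 to 0.11). Within a library Tfam stood at 2.07 to 3.47 times the level of Polrmt, averaging 3.01 ± 0.389 in WT and 2.52 ± 0.432 in KO. Tfb1m, the relative of Tfb2m that methylates the small ribosomal RNA, differed least of the 9. It was at 5.28, 6.65, 4.96, 5.64 and 5.3 FPKM in WT livers and 5.87, 5.5, 5.71, 5.34 and 6.26 FPKM in KO (log2 fold change 0.04, 95% CI -0.14 to 0.23). Tefm, the elongation factor of the polymerase, leaned the other way from Tfb2m, with 8.01, 6.82, 8.55, 7.37 and 8.32 FPKM in WT livers and 10.07, 8.81, 8.72, 8.25 and 8.14 FPKM in KO. KO replicates 1, 2 and 3 lay above every WT library and KO replicates 4 and 5 inside the WT range (log2 fold change 0.16, limma adjusted p = 0.469). For Tefm the exact two-sided permutation p was 0.0635.

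Of the MTERF family, DNA- and RNA-binding proteins named for transcription termination, 3 members were lower and 1 higher in KO. Mterf1a, which binds just past the ribosomal RNA genes, was at 1.71, 1.69, 1.42, 1.87 and 1.42 FPKM in WT livers and 1.22, 1.16, 0.99, 1.52 and 1.29 FPKM in KO. Only KO replicate 4 reached the WT range, and the level was low in all 10 libraries (log2 fold change -0.29, SE 0.11, limma adjusted p = 0.319; exact two-sided permutation p = 0.0238). Mterf1a lies on the minus strand of chromosome 5, 3890581 to 3893933 (GRCm38). Mterf1b is a close copy of it, listed at 0.368 ± 0.129 FPKM in WT livers and 0.33 ± 0.0962 FPKM in KO (n = 5 each), so how reads were divided between them is uncertain. Mterf4, which brings NSUN4 to the large ribosomal subunit, was at 9.74, 9.17, 8.69, 11.32 and 8.59 FPKM in WT livers and 7.88, 9.03, 7.33, 7.59 and 9.4 FPKM in KO. KO replicates 2 and 5 lay inside the WT range and the other 3 below it (log2 fold change -0.19, limma adjusted p = 0.45, exact two-sided permutation p = 0.0952). Of the 5271 annotated exon bases of Mterf4, 1855 overlap Sned1 on the opposite strand. Mterf3, a relative needed for the large ribosomal subunit, was at 14.9 ± 2.24 FPKM in WT livers and 13.6 ± 1.36 FPKM in KO, and Mterf2 at 2.03 ± 0.566 and 2.32 ± 0.28 FPKM.

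**Figure D3:**
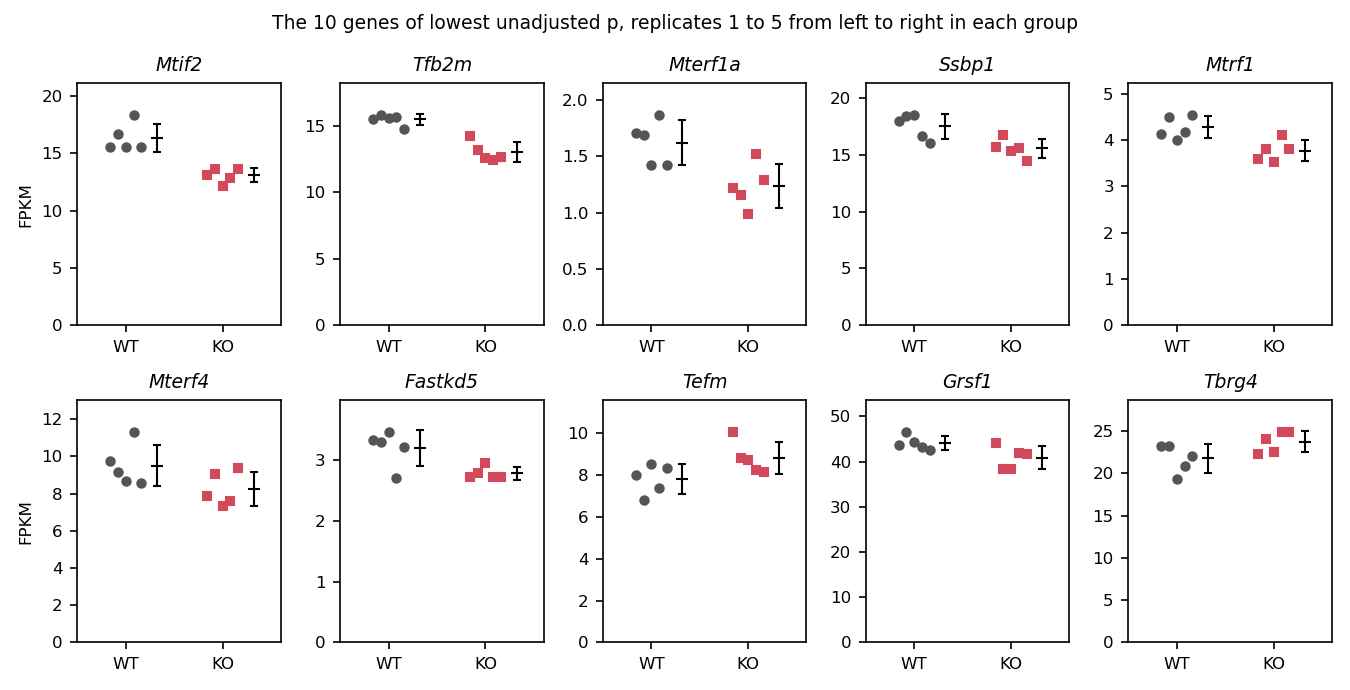
FPKM in every library for the 10 genes of lowest unadjusted p, WT as grey circles and KO as red squares, replicates 1 to 5 from left to right, with the mean and SD (n = 5) at the right of each group. The axes start at 0. The groups are apart in Mtif2 and Tfb2m and overlap in the other 8 genes, and Tefm and Tbrg4 have higher means in KO.

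Genes for RNA stability and decay numbered 12, with 9 lower and 3 higher in KO (7 and 5 with median-of-ratios scaling), a median log2 fold change of -0.06 and 0 past the test. Grsf1, an RNA-binding protein of the mitochondrial RNA granules and the highest of this role, was at 43.58, 46.57, 44.3, 43.19 and 42.5 FPKM in WT livers and 44.14, 38.27, 38.25, 41.79 and 41.62 FPKM in KO. Only KO replicate 1 lay inside the WT range (log2 fold change -0.11, limma adjusted p = 0.487; exact two-sided permutation p = 0.0476). Lrpprc, which with SLIRP protects mitochondrial messenger RNAs from decay, was at 26.0 ± 1.77 FPKM in WT livers and 26.8 ± 1.77 FPKM in KO (95% CI of the log2 fold change -0.1 to 0.19). Slirp, its small partner, scattered between 8.45 and 13.88 FPKM in WT livers and between 6.06 and 11.96 FPKM in KO, and the ratio of Lrpprc to Slirp ranged from 2.03 to 4.27. In the annotation 2914 of the 3104 exon bases of Slirp overlap Snw1 on the opposite strand, so its values may include reads of that gene. Pnpt1 and Supv3l1, the nuclease and helicase of the mitochondrial degradosome, were at 9.92 ± 0.58 and 7.32 ± 0.986 FPKM in WT livers and 9.54 ± 1.24 and 7.15 ± 0.425 FPKM in KO. Mtpap, the poly(A) polymerase that tails mitochondrial messenger RNAs, was at 6.63 ± 0.277 FPKM in WT livers and 6.14 ± 0.29 FPKM in KO (log2 fold change -0.1, limma adjusted p = 0.586).

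The FASTK family, RNA-binding proteins that each look after particular mitochondrial transcripts, had differences of both signs. Fastkd5, required for processing of messenger RNAs that are not flanked by transfer RNAs, was at 3.33, 3.3, 3.47, 2.71 and 3.22 FPKM in WT livers and 2.72, 2.79, 2.96, 2.72 and 2.73 FPKM in KO. WT replicate 4 was the lowest of all 10 libraries while the other WT values lay above every KO value (log2 fold change -0.17, limma adjusted p = 0.455, exact two-sided permutation p = 0.0476). Of the 3015 exon bases of Fastkd5, 1966 also belong to Ubox5 on the same strand, so the division of reads between them is uncertain. Tbrg4, also called FASTKD4, a stabiliser of several messenger RNAs, was at 23.27, 23.2, 19.34, 20.86 and 22.07 FPKM in WT livers and 22.27, 24.03, 22.54, 24.85 and 24.89 FPKM in KO. Here 3 KO libraries exceeded every WT library and 2 did not (log2 fold change 0.12, limma adjusted p = 0.497, exact two-sided permutation p = 0.0714). Fastkd1 differed least, with 7.69, 8.51, 7.41, 8.14 and 8.43 FPKM in WT livers and 8.44, 7.26, 7.99, 7.98 and 9 FPKM in KO (95% CI of the log2 fold change -0.15 to 0.18). Fastk, which supports the message of mt-Nd6, was at 26.6 ± 1.81 FPKM in WT livers and 26.2 ± 2.28 FPKM in KO, Fastkd2, which binds the large ribosomal RNA, at 5.74 ± 0.295 and 5.47 ± 0.69 FPKM, and Fastkd3 at 2.46 ± 0.259 and 2.14 ± 0.315 FPKM.

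In transfer RNA processing and ribosomal RNA modification, 5 of 7 genes were higher and 2 lower in KO, with a median log2 fold change of 0.01 and 0 past the test. Hsd17b10, a dehydrogenase of isoleucine breakdown that is also a subunit of mitochondrial RNase P, was the most abundant of the 39. It was at 119.82, 157.67, 153.67, 116.69 and 126.29 FPKM in WT livers and 153.39, 144.36, 140.81, 133.19 and 164.22 FPKM in KO. WT replicates 2 and 3 stood among the KO values and the other 3 WT libraries below all of them (log2 fold change 0.13, 95% CI -0.07 to 0.34). Trmt10c, the methyltransferase subunit of the same enzyme, was at 6.99 ± 1.0 FPKM in WT livers and 6.34 ± 0.277 FPKM in KO, and Hsd17b10 exceeded it 15.8 to 26.7 times within a library. Elac2, the nuclease that cuts the other end of transfer RNAs, was at 10.1 ± 0.519 FPKM in WT livers and 10.2 ± 0.96 FPKM in KO (95% CI of the log2 fold change -0.15 to 0.19). Of the methyltransferases of the large ribosomal RNA, Mrm2 differed least, at 5.19, 5.15, 6.04, 7.43 and 6.7 FPKM in WT livers and 5.19, 6.89, 5.46, 5.79 and 7.39 FPKM in KO (95% CI -0.25 to 0.27). Mrm1 was at 1.39 ± 0.239 FPKM in WT livers and 1.2 ± 0.17 FPKM in KO and Mrm3 at 3.42 ± 0.217 and 3.68 ± 0.516 FPKM. Nsun4, a methyltransferase of the small ribosomal RNA, was at 5.4 ± 0.307 FPKM in WT livers and 5.47 ± 0.667 FPKM in KO.

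Translation factors numbered 7, of which 6 were lower and 1 higher in KO (2 and 5 with median-of-ratios scaling, 4 and 3 with quantile normalization), and 0 passed the test. Mtif2, the initiation factor that places the initiator transfer RNA on the mitochondrial ribosome, had the lowest p of the 39 genes. Its values were 15.52, 16.68, 15.59, 18.38 and 15.53 FPKM in the WT libraries and 13.13, 13.65, 12.19, 12.84 and 13.62 FPKM in the KO libraries. The highest KO library lay almost 2 FPKM below the lowest WT library, so the groups did not overlap. Means were 16.3 ± 1.24 and 13.1 ± 0.606 FPKM (n = 5 each), and KO livers were at 80.1% of WT, a log2 fold change of -0.31 (SE 0.07, 95% CI -0.46 to -0.16). The limma adjusted p was 0.13 and the exact two-sided permutation p was 0.00794, which follows from the groups not overlapping. Mtif2 lies on the plus strand of chromosome 11, 29526408 to 29545279 (GRCm38), with 0 bases of exon overlap. Across 21 refits at other settings its log2 fold change ran from -0.33 to -0.26 and that of Tfb2m from -0.27 to -0.19. Neither passed in any of these, with lowest adjusted p of 0.111 for Mtif2 and 0.115 for Tfb2m.

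The other initiation factor, Mtif3, did not share that pattern, at 20.6 ± 0.598 FPKM in WT livers and 19.9 ± 1.7 FPKM in KO (log2 fold change -0.05, 95% CI -0.2 to 0.1). Mtrf1, a release factor, was at 4.13, 4.5, 4.01, 4.18 and 4.55 FPKM in WT livers and 3.59, 3.8, 3.53, 4.11 and 3.81 FPKM in KO. Only KO replicate 4 reached the WT range (log2 fold change -0.16, limma adjusted p = 0.436; exact two-sided permutation p = 0.0159). Tufm, the elongation factor that delivers aminoacyl-transfer RNAs and the highest of this role, was at 49.7, 56.33, 52.96, 56.29 and 56.08 FPKM in WT livers and 48.91, 58.01, 51.57, 52.73 and 57.08 FPKM in KO. The 2 ranges coincided (log2 fold change -0.02, 95% CI -0.16 to 0.12). Tsfm, which recharges Tufm with nucleotide, was at 7.32, 9.98, 9.34, 7.83 and 8.1 FPKM in WT livers and 8.03, 7.89, 8.4, 7.96 and 9.9 FPKM in KO (95% CI -0.22 to 0.2), and the ratio of Tufm to Tsfm was 6.44 ± 0.732 in WT and 6.39 ± 0.617 in KO. Gfm1, which moves the ribosome along the message, was at 54.5 ± 5.59 FPKM in WT livers and 53.3 ± 4.44 FPKM in KO. Gfm2, which recycles the ribosome after termination, was at 16.3 ± 0.41 and 16.98 ± 1.19 FPKM.

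Nuclear genes of related tasks were taken from 8 lists of 131 genes, of which 129 were tested and 0 passed. In these lists 88 were lower and 41 higher in KO (64 and 65 with median-of-ratios scaling), and 10 lower and 2 higher had an unadjusted p under 0.05, shares below the 9.07% and 2.69% of all genes tested. The groups did not overlap in 3 lower genes, Osgepl1, Nfe2l2 and Tomm70a, and in 1 higher gene, Trmt61b, where 2.21% and 0.581% of all genes tested had such ranges. The aminoacyl-transfer RNA synthetases had 13 lower and 6 higher of 19. Of these, Gatc, a subunit of the amidotransferase that makes glutaminyl-transfer RNA, was at 20.1 ± 1.37 FPKM in WT livers and 17.7 ± 0.909 FPKM in KO (limma adjusted p = 0.304). Hars2, which charges the histidine transfer RNA, had a log2 fold change of -0.12. Transfer RNA modification had 17 lower and 3 higher of 20 (14 and 6 with median-of-ratios scaling). Osgepl1, which modifies adenosines next to the anticodon, was at 9.9 ± 0.646 FPKM in WT livers and 8.88 ± 0.239 FPKM in KO, without overlap (limma adjusted p = 0.407), while Trnt1, which adds the terminal CCA, and Mettl8 had log2 fold changes of -0.18 and -0.14. Trmt61b, a transfer RNA methyltransferase named here after its values were seen, was at 1.62 to 1.95 FPKM in WT livers and 2.01 to 2.11 FPKM in KO, also without overlap (log2 fold change 0.14, limma adjusted p = 0.571). Ribosome assembly had 13 lower and 5 higher of 18, which turned to 6 and 12 with median-of-ratios scaling, and 0 at an unadjusted p under 0.05. The pseudouridine synthases Trub2 and Rpusd4 had log2 fold changes of 0.14 and -0.16, and the helicase Dhx30 one of 0.13. Other translation and membrane insertion factors had 5 lower and 5 higher of 10 (3 and 7 with median-of-ratios scaling). The insertase Oxa1l was at 23.4 ± 1.82 FPKM in WT livers and 26.0 ± 2.41 FPKM in KO (limma adjusted p = 0.487), and the recycling factor Mrrf and Mtres1 had log2 fold changes of 0.11 and -0.09.

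In mitochondrial DNA maintenance, 14 of 22 genes were lower and 8 higher in KO, which turned to 8 and 14 with median-of-ratios scaling. The uracil-DNA glycosylase Ung was at 4.37 ± 1.06 FPKM in WT livers and 2.82 ± 0.78 FPKM in KO (log2 fold change -0.56, limma adjusted p = 0.233). The helicase and nuclease Dna2 was at 3.89 ± 0.537 and 2.88 ± 0.547 FPKM (limma adjusted p = 0.251), and the mitochondrial nuclease Endog at 28.8 ± 1.69 and 33.8 ± 3.74 FPKM (limma adjusted p = 0.277). Ranges overlapped in all 3 of these genes. Other RNA turnover genes had 4 lower and 2 higher of 6 (3 and 3 with median-of-ratios scaling). The RNA nuclease Lactb2 was at 68.4 ± 3.96 and 58.9 ± 7.79 FPKM (limma adjusted p = 0.359), and the oligonuclease Rexo2 and Ptcd2 had log2 fold changes of -0.13 and -0.1.

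The nuclear regulators of mitochondrial biogenesis had log2 fold changes from -0.47 to 0.45, with 8 lower and 6 higher of 14, 0 past the test, and 4 lower and 1 higher at an unadjusted p under 0.05, beside 9.07% and 2.69% of all genes tested. Nfe2l2, the transcription factor of the antioxidant response, was at 31.72 to 36.94 FPKM in WT livers and 24.52 to 28.91 FPKM in KO, without overlap (log2 fold change -0.35, limma adjusted p = 0.0795). Gabpa, the DNA-binding subunit of the factor that recognises the ETS motif shown above, was at 12.8 ± 0.932 FPKM in WT livers and 10.7 ± 0.981 FPKM in KO (n = 5 each). Its highest KO library, at 11.74 FPKM, just exceeded its lowest WT library, at 11.69 FPKM (log2 fold change -0.25, limma adjusted p = 0.233). Gabpb1, its partner subunit, was at 4.67 ± 0.489 and 3.85 ± 0.351 FPKM (limma adjusted p = 0.307), and Nrf1 was at 4.64 ± 0.32 and 4.68 ± 0.539 FPKM (log2 fold change 0.01, 95% CI -0.19 to 0.2). Both were named after their values were seen. Ppargc1a, the coactivator PGC-1 alpha, leaned the other way, at 3.76 ± 0.569 FPKM in WT livers and 5.4 ± 1.43 FPKM in KO, with KO replicates 2 and 5 inside the WT range (log2 fold change 0.45, limma adjusted p = 0.285).

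**Figure D4:**
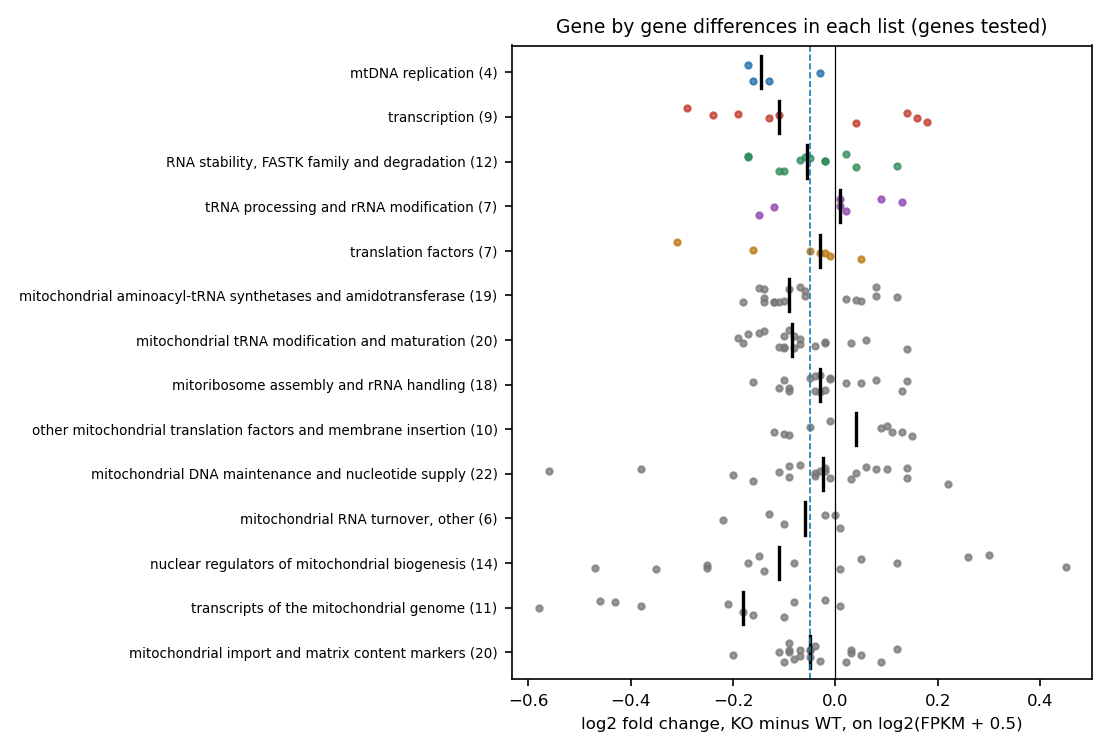
Log2 fold change (KO minus WT, on log2(FPKM + 0.5)) of each tested gene, 1 point per gene, in the 5 roles of the 39 genes (coloured) and in the companion lists (grey), with the number tested in brackets. Black bars mark medians and the dashed line the median of all genes tested, -0.05. The roles lie between -0.31 and 0.18, while transcripts of the mitochondrial genome reach -0.58.

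Transcripts of the mitochondrial genome, which these proteins make and handle, had a median log2 fold change of -0.18 over 11 tested, with 10 lower and 1 higher in KO (9 and 2 with median-of-ratios scaling). The mt-Rnr1 transcript, the small ribosomal RNA, fell in KO to 949 to 1282 FPKM against 1494 to 1719 FPKM in WT (log2 fold change -0.58, limma adjusted p = 0.0222). This call was lost in 10 of 21 refits, including those that left out WT replicate 1, 3, 4 or 5, and KO replicate 1, 2 or 3, with adjusted p up to 0.0981, while the log2 fold change stayed between -0.59 and -0.56 in these 10 and between -0.63 and -0.52 in all 21. The large ribosomal RNA mt-Rnr2 was at 1912 ± 200 and 1381 ± 98.4 FPKM (limma adjusted p = 0.0706), mt-Nd2 at 76.6% and mt-Nd6 at 74.5% of the WT mean, all 3 without overlap between genotypes. With mt-Rnr1, 4 of the 11 tested did not overlap, all lower in KO, where 2.21% of all genes tested had such ranges. The RNA was poly(A)-selected, so these values cover only RNA that this step retained, and whether retention differed between genotypes was not tested. The other messages stood at 86.4% of WT for mt-Nd3, 88.9% for mt-Nd5, 89.3% for mt-Nd4, 92.8% for mt-Nd1, 94.4% for mt-Cytb, 98.2% for mt-Nd4l and 100.4% for mt-Co1. Ranges of these 7 overlapped. The table lists mt-Co2, mt-Atp6 and mt-Atp8 at 0 in every library, and mt-Co3 at 0.3 FPKM or less. These 4 fell below the filter, so the median covers only the other 11 transcripts. Why the 4 were at or near 0 was not tested, and how completely this list was measured is uncertain.

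Of the 20 markers of mitochondrial import and matrix content, 14 were lower and 6 higher in KO (9 and 11 with median-of-ratios scaling), with a median log2 fold change of -0.05, that of all genes tested. Tomm70a, an import receptor of the outer membrane, was at 33.29 to 36.59 FPKM in WT livers and 29.01 to 32.15 FPKM in KO, without overlap (limma adjusted p = 0.187). Hspd1, the matrix chaperonin, was at 243 ± 7.53 and 226 ± 12.0 FPKM, and Opa1, which shapes the inner membrane, at 29.3 ± 1.37 and 27.1 ± 1.43 FPKM.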

How the data were processed

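Liver RNA of 10 samples was poly(A)-selected before sequencing, per the labels' protocols. The deposited table gives FPKM with 2 decimals. The submitters' processing notes list the build mm10 and, with no roles, DESeq, DESeq2, RSEM, STAR and R 4.0.2. No annotation release or strand setting is given in the sources used here. Since the deposited FPKM are scaled to library totals, abundant transcripts can shift all other values.

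Depth was estimated from steps between low FPKM values of genes with 1 transcript of 350 to 1000 bases. Between 93.8% and 96.9% of those values came within 0.1 fragment of a whole number, and the fit of KO replicate 3 was halved because nearly all its numbers were even. Counts were not rebuilt.

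Genotypes were taken from the labels. Values were taken as log2(FPKM + 0.5), which understates changes of low genes, and the 12395 genes whose mean reached 0.5 FPKM entered a fit with limma 3.58.1 (R 4.3.3). The test was two-sided with a trended, robust prior, and p-values were adjusted over all these genes by Benjamini-Hochberg, with a threshold of 0.05. Single genes were also tested by exact two-sided permutation over all 252 regroupings of the libraries. These permutation p-values were not adjusted, and they are given for the genes of lowest limma p, on the same values. The fit was checked on simulated data. Promoter windows come from RefSeq (GRCm38.p6) and gene positions from GENCODE (GRCm38). Mtif3, Mtpap and Mterf3 had no promoter window. Python 3.11.15 and matplotlib 3.10.9 drew the figures.

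Given with every library's value were genes with an unadjusted p under 0.05, further genes of lowest p up to 10, and in each role the gene of highest level and the gene of smallest difference. Polrmt was added to these after its values were seen. In each companion list the 3 genes of lowest p were named, apart from 1 result that is not reported here, and all transcripts of the mitochondrial genome were given. The 39 genes, the 9 companion and the 11 marker lists were chosen with earlier results of these data known. Alternatives covered the pseudocount, filter, scaling, variance model, array weights, a replicate block and each library left out.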

Additional observations from a re-analysis of the deposited data

Results flagged for a closer look

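In 8 of the 158 groups of 5 libraries looked at (79 genes, both genotypes), 1 library stood apart from the other 4 of its group by Dixon's 95% criterion. Chance flags about 5% of groups. Among the 39 genes there were 6. Polg2 was at 2.11 FPKM in WT replicate 1, where the other WT libraries ran from 3.49 to 3.84 FPKM. Mterf2 was at 3.04 FPKM in WT replicate 4, above 1.73 to 1.83 FPKM in the others. Without that library Mterf2 was the 1 gene higher in KO at an unadjusted p under 0.05, with a limma adjusted p of 0.335. Slirp was at 13.88 FPKM in WT replicate 5, above 8.45 to 9.61 FPKM. Mrm3 was at 3.04 FPKM in WT replicate 1, below 3.44 to 3.55 FPKM. Tsfm was at 9.9 FPKM in KO replicate 5, above 7.89 to 8.4 FPKM. Mtif3 was at 16.87 FPKM in KO replicate 1, below 20.32 to 20.88 FPKM.

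Outside the 39 genes, Rexo2 was at 34.16 FPKM in KO replicate 1, below 41.93 to 43.87 FPKM, and Lactb2 at 45.13 FPKM in KO replicate 2, below 60.37 to 63.42 FPKM.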

How the results depend on the processing

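In 21 refits 0 of the 39 genes passed the test (lowest adjusted p 0.111), and 27 kept their sign in each. Mtif2 and Tfb2m had an unadjusted p under 0.05 in 21 of 21, Ssbp1 in 14 of 21 and Mterf1a in 18 of 20. Mterf1a and Mrm1 were not tested at a mean of at least 2 FPKM. Over all genes 8 were called, 5 with no filter, 5 with no trend and no robust prior and 18 with array weights, and 4 to 18 with a library left out (18 without WT replicate 2, 4 without WT replicate 1 or 5 or KO replicate 2). Whether the replicate numbers pair the samples is not stated in the labels. In their deviations from group means, same-numbered libraries correlated at 0.118, -0.025, 0.066, 0.001 and 0.204, the last being the highest of any WT and KO pair. Not every library correlated best with its own number. These correlations cannot decide whether the samples were paired, since a shared litter or day need not leave a mark on them. With the replicate block 5 genes were called. Leaving out a library gave 2 (without KO replicate 3) to 5 of the 39 lower and 0 to 1 higher at an unadjusted p under 0.05, and a median log2 fold change of -0.07 to 0.0 (0.0 without KO replicate 1). With median-of-ratios scaling and with quantile normalization 2 were higher and the median was 0.0.

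Signs changed in genes near 0. With median-of-ratios scaling log2 fold changes became 0.02 for Polg, 0.03 for Fastk, 0.02 for Supv3l1, 0.04 for Tufm, 0.04 for Tsfm, 0.02 for Gfm1, 0.0 for Mtif3 and 0.03 for mt-Nd4l. With quantile normalization they became 0.02 for Polg, 0.01 for Fastk, 0.03 for Supv3l1, 0.02 for Tufm, 0.04 for Tsfm and -0.02 for mt-Co1. Array weights gave 0.0 for Polg, 0.0 for Supv3l1, -0.02 for Mrm2 and 0.01 for Tsfm, rescaling to a fixed sum 0.0 for Tsfm, and rescaling without mitochondrial transcripts 0.0 for mt-Co1. With a library left out the ranges were -0.09 to 0.04 for Polg, -0.13 to 0.1 for Slirp, -0.06 to 0.01 for Fastk, -0.02 to 0.05 for Fastkd1, -0.08 to 0.03 for Supv3l1, -0.02 to 0.07 for Elac2, -0.04 to 0.06 for Nsun4, -0.05 to 0.08 for Mrm2, -0.05 to 0.01 for Tufm, -0.06 to 0.05 for Tsfm, -0.09 to 0.01 for Gfm1, -0.07 to 0.01 for Mtif3, -0.07 to 0.03 for mt-Nd4l, -0.02 to 0.05 for mt-Co1 and -0.13 to 0.01 for mt-Cytb. The mt-Rnr1 call was lost with no filter (adjusted p = 0.0602), with no trend and no robust prior (0.0614), with the replicate block (0.0634), at a log2 fold change of -0.58 in each, and with 7 of the libraries left out (0.0597 to 0.0981, limma), at -0.59 to -0.56, and the cause was not tested. Depth limits genes near 1 FPKM, such as Mrm1 and Mterf1a.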
